A study of Homo sapiens with 2 samples.

Results

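The 35 genes described here are 20 cytosolic aminoacyl-tRNA synthetase genes and 15 genes of the amino-acid response run by the transcription factor ATF4. They were taken by symbol from a gene table of 58698 entries, and all 35 occur in it under a single entry each. All 35 passed the filter used throughout, a level of at least 1 FPKM (sequenced fragments, divided by transcript length in kilobases and by library size) in the library where the gene was higher, as did 13420 genes of the whole table. The table's header names no unit and FPKM is a reading of it; both columns sum to about the same total, so a further scaling to a common sum is possible. The study compared 2 cultures of MIA PaCa-2, an established human pancreatic cancer cell line: 1 labelled sgGFP, genotype WT, whose guide targets a jellyfish gene that human cells lack, and 1 labelled sgTPST2, genotype TPST2 KD, whose guide targets the tyrosine sulfotransferase TPST2. Whether either culture was a pool of cells or 1 clone, and how its guide acted, is not stated in any source used here. Each condition was 1 library, so no difference below has a replicate check, no test was made, and fewer cells in a given state cannot be told apart from less RNA per cell.

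Aminoacyl-tRNA synthetases join each amino acid to its matching tRNA, and so supply the ribosome. When an amino acid runs short, uncharged tRNA activates the kinase GCN2 (EIF2AK4), which phosphorylates the translation factor eIF2; general translation slows while the ATF4 mRNA is translated more. ATF4 then binds DNA together with C/EBP-family partners and switches on genes for amino-acid synthesis, uptake and tRNA charging, many synthetases among them. Since this control acts in large part on translation of ATF4, the level of its mRNA need not follow the amount of its protein.

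The composite site that ATF4 and C/EBP proteins bind is known as the C/EBP-ATF response element, and it was searched as TGATGNAAN on both strands. The windows were RefSeq promoters on GRCh38.p14, each running from 250 bases before to 50 bases after an annotated start. Of the 35 genes, 29 matched an entry; DARS, LARS, VARS, YARS, PSPH and SHMT2 did not. The element occurred in a window of 12 of these 29 genes (41.4%), against 4.45% of all 27305 genes with a window. Counted by window, it was in 12 of 45 (26.7%) against 3.61% of 35116. Several of these genes are textbook ATF4 targets, so the share describes the choice of genes. A match of letters is not evidence that a protein binds there in these cells. The 12 matches are shown because they sort the genes below into those that carry the element near the start and those that do not. Each is printed 5′ to 3′ on the strand that reads TGATG, with the element in capitals.

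AARS (chr16:70289676-70289704, plus strand): ctaacttggcTGATGCAACtgcgagaaaa
CARS (chr11:3057408-3057436, plus strand): tcctagaatcTGATGCAACcgccgccccg
GARS (chr7:30594834-30594862, minus strand): gctcggagcaTGATGAAATcgccgcgtaa
IARS (chr9:92293693-92293721, plus strand): cgcacggaggTGATGCAACgcgctgaaaa
MARS (chr12:57488053-57488081, minus strand): aatccctcgcTGATGCAACcggaaccggc
NARS (chr18:57621804-57621832, minus strand): ctacgctctcTGATGCAACgccggaatcg
TARS (chr5:33440956-33440984, minus strand): ctggaccagcTGATGCAATcgaaaggcgc
ASNS (chr7:97872458-97872486, minus strand): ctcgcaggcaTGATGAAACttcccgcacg
CHAC1 (chr15:40953251-40953279, minus strand): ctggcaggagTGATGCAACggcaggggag
SLC3A2 (chr11:62881725-62881748, minus strand): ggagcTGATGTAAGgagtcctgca
SLC7A1 (chr13:29595663-29595691, minus strand): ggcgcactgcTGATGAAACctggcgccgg
SLC1A5 (chr19:46784893-46784921, minus strand): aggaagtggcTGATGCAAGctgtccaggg

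The form TGATGCAAC occurred 6 times, in the synthetases AARS, CARS, IARS, MARS and NARS and in CHAC1, and the form TGATGAAAC in ASNS and SLC7A1. By group, 7 of 16 matched synthetases and 5 of 13 other matched genes carried the element.

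As a group, the 35 genes were close to the same level in both libraries. Their median difference was -0.036 on the scale log2((sgTPST2 + 1)/(sgGFP + 1)), beside -0.00019 over all 13420 genes past the filter. On that scale 1 gene, the serine synthesis enzyme PHGDH, was at least 1.5-fold higher in sgTPST2, while 0 genes were that much lower. Over all genes past the filter, 4.41% were that much higher and 6.94% that much lower. Low genes scatter more, so 8569 protein-coding genes within the levels of these 35 (4.78 to 292 FPKM in the higher library) are the closer background: 2.75% were 1.5-fold higher and 4.83% lower. At 1.2-fold, 3 of the 35 were higher (PHGDH, ASNS and WARS) and 3 lower (FARSB, SLC7A5 and AARS), with 13.0% and 14.1% in that background. None of the 35 was 2-fold apart in either direction (background 0.829% higher, 2.03% lower). These shares are near the background, so by size of difference the group as a whole did not stand out from other genes of its level. By direction, 23 of the 35 (65.7%) were lower in sgTPST2, beside 50.3% of that background. Whether these 2 shares differ was not tested. In the authors' deposited table PHGDH has p = 0.0127 and q = 0.735, and the other 34 genes have q = 0.9997; 96 genes of that table have q of 0.05 or less.

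**Figure D1:**
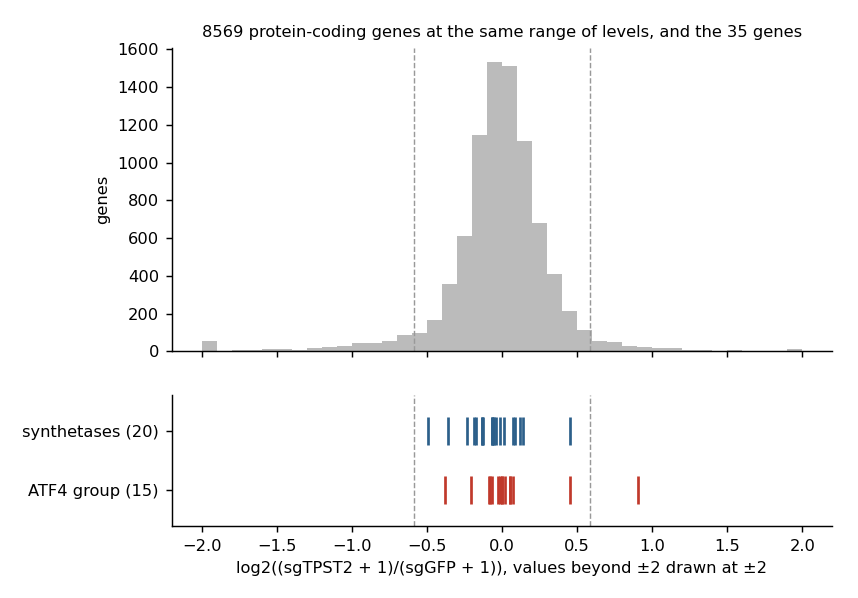
Differences between libraries, as log2((sgTPST2 + 1)/(sgGFP + 1)), of 8569 protein-coding genes at the same range of levels (histogram, counts of genes) and of the 35 genes (ticks; 20 synthetases above, 15 genes of the ATF4 group below). Dashed lines mark 1.5-fold; PHGDH, at 0.91, is the 1 tick beyond them.

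The precision of single values was read from the low end of the table. Low values fell in steps that put 1 FPKM at about 42.0 fragments for each kb of a transcript in the control and at 47.8 in sgTPST2. By that scale the 35 genes rest on about 277 to 42307 fragments each, taking for each gene the annotated transcript with the longest coding sequence. Ratios of sgTPST2 to sgGFP are therefore given with 95% intervals (exact Clopper-Pearson on the fragments), which cover counting error only. For 26 of the 35 genes that interval leaves out 1, above it for 10 and below it for 16. The same count was not made over other genes of similar level, so it cannot set these 35 apart. With 1 library each, such a small difference may be no larger than the one between 2 cultures of the same cells, which was not measured.

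**Figure D2:**
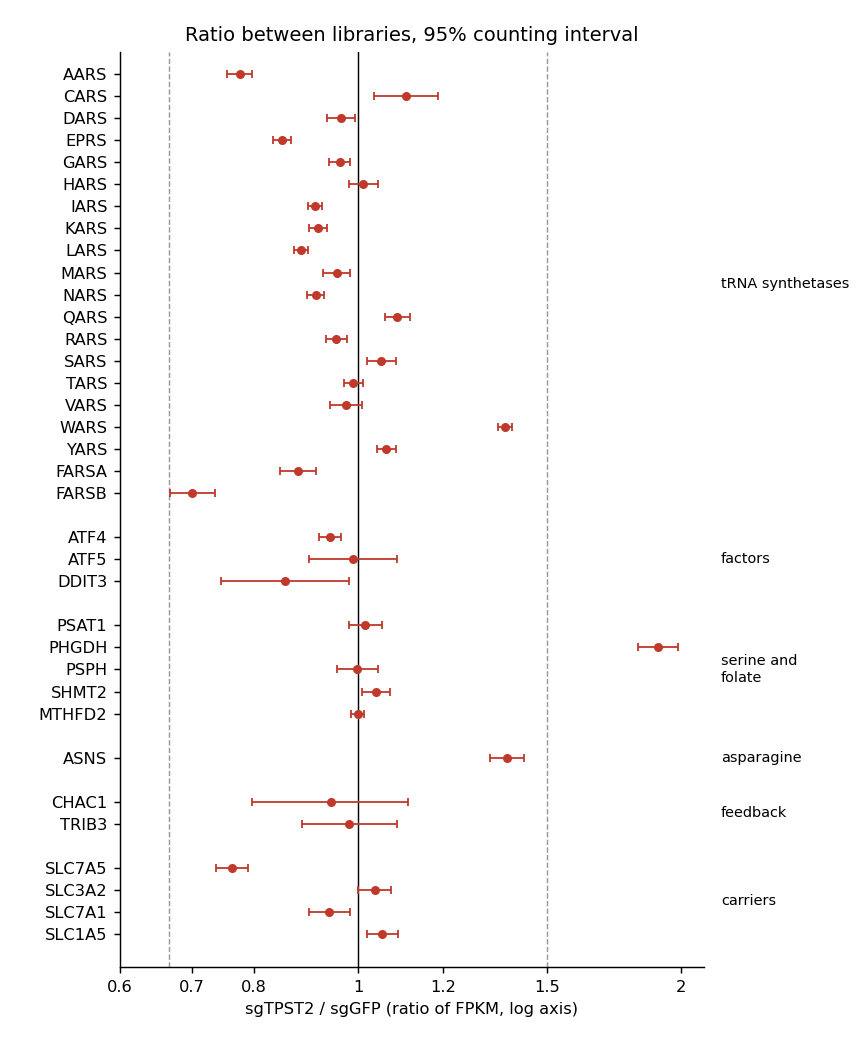
Ratio of FPKM in sgTPST2 to sgGFP for each of the 35 genes (log axis), with 95% counting intervals as bars; each point compares 1 library with 1 library. Dashed lines mark 1.5-fold in either direction. PHGDH at 1.90 lies apart, followed by ASNS at 1.38 and WARS at 1.37 above 1, and by FARSB at 0.701, SLC7A5 at 0.764 and AARS at 0.776 below it.

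Most synthetases were on the lower side in sgTPST2. Of 20 genes, 14 (70.0%) were lower and 6 higher, with a median difference of -0.061 and a range from -0.49 to 0.45. In the background of similar level, 50.3% of genes were lower. Of the 14 and 6, 12 and 5 lay beyond counting error, a count not made over the background. None was 1.5-fold apart. Their summed level was 2343 FPKM in sgGFP and 2305 FPKM in sgTPST2, so the total was nearly equal. FPKM is per length, so levels can be set against each other, and these genes are well expressed: their median was 105 FPKM in sgGFP and 104 in sgTPST2, against 15.1 FPKM for protein-coding genes past the filter in sgGFP.

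In animal cells 8 of these enzymes (DARS, EPRS, IARS, KARS, LARS, MARS, QARS and RARS) sit together in the multisynthetase complex. This grouping was made after the values were seen. Of these 8, 7 were lower in sgTPST2 and 1 was higher, beside 50.3% lower in the background, with a median of -0.095. At 1.2-fold there were 0 of the 8 (background 13.0% higher, 14.1% lower). EPRS, the bifunctional enzyme that charges both glutamate and proline tRNAs, was at 105 FPKM in sgGFP and 89.6 FPKM in sgTPST2 (ratio 0.849, interval 0.833 to 0.866). This was the ratio farthest from 1 within the complex. LARS, which charges leucine tRNAs and also senses leucine for mTORC1, was at 175 and 155 FPKM. IARS, for isoleucine, was at 177 and 162 FPKM. KARS, for lysine, was at 197 and 181 FPKM. The ratio of sgTPST2 to sgGFP was 0.886 for LARS, 0.912 for IARS and 0.918 for KARS, so these 3 lay close together. RARS, for arginine, was at 164 and 157 FPKM. MARS, for methionine, was at 79.1 and 75.6 FPKM. DARS, for aspartate, was at 90.1 and 86.9 FPKM. QARS, for glutamine, was the 1 enzyme of the complex that was higher, at 89.5 and 97.3 FPKM. The 3 scaffold proteins of the complex had a median of -0.0045, with 0 of 3 at 1.5-fold (background 2.75% higher, 4.83% lower). AIMP1 stood at 47.6 and 47.4 FPKM, AIMP2 at 54.95 and 56.8 FPKM and EEF1E1 at 106 and 93.7 FPKM.

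The other 12 synthetase genes spread more widely, from -0.49 to 0.45, around a median of -0.025. WARS, which charges tryptophan tRNAs and is known as an interferon-inducible gene, was the highest of all 35 genes, at 213 FPKM in sgGFP and 292 FPKM in sgTPST2 (ratio 1.37, interval 1.35 to 1.39). It was the 1 synthetase at least 1.2-fold higher. Its exons share 287 of 6358 bases with WDR25 on the opposite strand, which was itself at 11.8 and 16.3 FPKM. FARSB, the beta subunit of the phenylalanine enzyme, went the other way, at 28.1 and 19.7 FPKM (ratio 0.701, interval 0.668 to 0.735). Its partner FARSA, the alpha subunit, was at 67.0 and 58.8 FPKM. The 2 subunits work as a tetramer of equal parts, and the level of FARSA over FARSB was 2.38 in sgGFP and 2.99 in sgTPST2. FARSB lies on chromosome 2 (222570536 to 222656337, GRCh38), in the stretch from 190 to 230 Mb whose 105 genes of similar level had a median difference of -0.35. AARS, for alanine, was at 85.2 and 66.1 FPKM (ratio 0.776, interval 0.755 to 0.796). It carries the element TGATGCAAC.

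The remaining 8 synthetases were within 1.2-fold. Asparagine's NARS was at 182 and 166 FPKM, and GARS, for glycine, at 136 and 130 FPKM. Threonine's TARS, at 187 and 185 FPKM, had an interval that includes 1 (0.970 to 1.01). The same held for VARS, for valine, at 37.7 and 36.8 FPKM, and for HARS, for histidine, at 78.6 and 79.5 FPKM. SARS, for serine, stood at 104 and 110 FPKM. Tyrosine's YARS was at 133 and 142 FPKM. CARS, for cysteine, was the lowest synthetase in both libraries, at 13.7 and 15.2 FPKM, on about 1482 and 1871 fragments. Among these 8, SARS, YARS, HARS and CARS were on the higher side in sgTPST2.

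**Figure D3:**
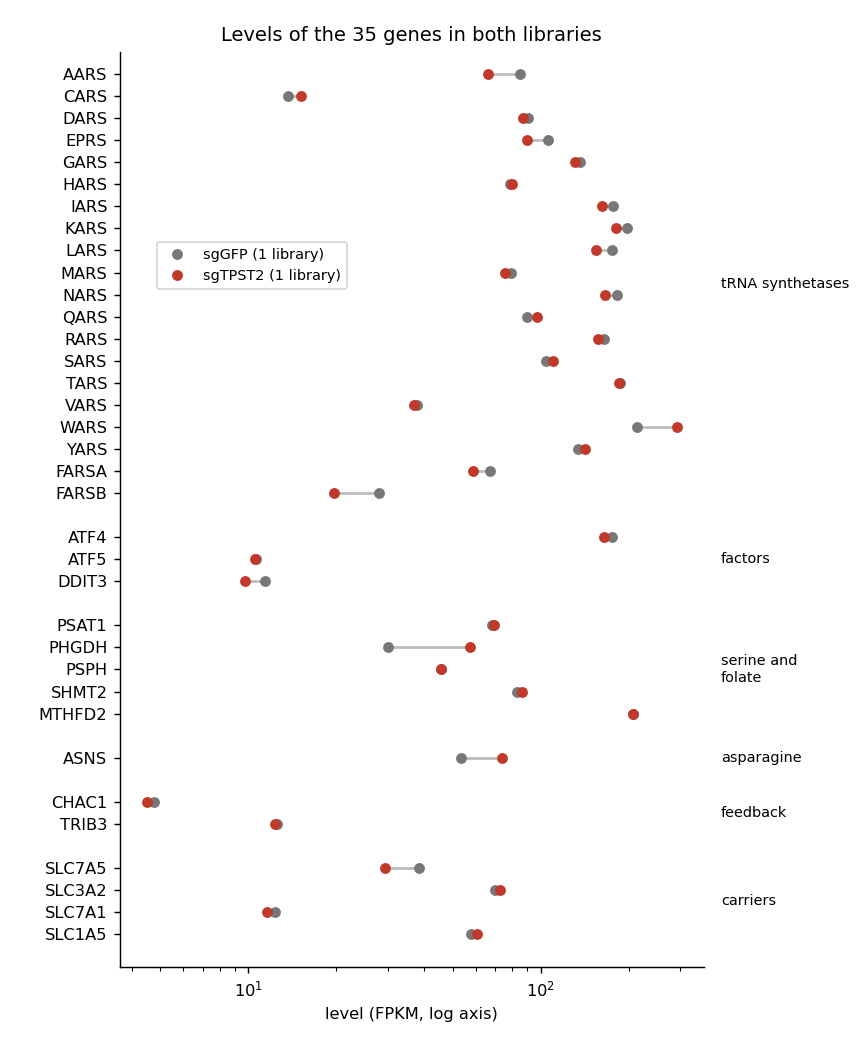
Level of each of the 35 genes in the sgGFP library (grey) and the sgTPST2 library (red), in FPKM on a log axis, joined by a line and grouped by role. Most pairs of points touch or overlap; the longest lines belong to PHGDH (30.0 to 57.1 FPKM), ASNS, WARS and FARSB.

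Of the 3 transcription factors, ATF4 and DDIT3 were slightly lower in sgTPST2, by less than 1.2-fold, and ATF5 did not differ beyond counting error. ATF4 mRNA stood at 175 FPKM in sgGFP and 165 FPKM in sgTPST2 (ratio 0.942, interval 0.920 to 0.964). ATF5, a related factor whose mRNA is also translated more when eIF2 is phosphorylated, was at 10.7 and 10.6 FPKM (ratio 0.989, interval 0.901 to 1.09). DDIT3 encodes CHOP, which ATF4 induces under lasting stress, and it was at 11.4 and 9.73 FPKM (ratio 0.854, interval 0.745 to 0.982). The DDIT3 value is uncertain. Of its 1307 exonic bases, 355 are shared with MARS on the opposite strand of chromosome 12, a gene at 79.1 and 75.6 FPKM, and whether the counting kept the strands apart is not stated in any source used here. ATF5 likewise shares 626 of 2954 exonic bases with NUP62, at 19.3 and 19.6 FPKM.

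TRIB3 and CHAC1 are among the genes that respond most to ATF4 and CHOP: TRIB3 is a pseudokinase that feeds back on the pathway, and CHAC1 breaks down glutathione. TRIB3 was at 12.6 FPKM in sgGFP and 12.4 FPKM in sgTPST2 (ratio 0.981, interval 0.886 to 1.09). CHAC1 was the lowest of the 35 genes, at 4.78 and 4.50 FPKM (ratio 0.943, interval 0.797 to 1.11). Neither differed beyond counting error, and for CHAC1, on about 277 and 297 fragments, the interval reaches from 0.797 to 1.11.

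Asparagine synthetase, ASNS, makes asparagine from aspartate and glutamine and holds the best known element of this kind. It was at 53.3 FPKM in sgGFP and 73.4 FPKM in sgTPST2, a ratio of 1.38 (interval 1.33 to 1.43) and a difference of 0.45 on the log2 scale. It was the 1 gene with the element that was at least 1.2-fold higher. Its exons share 1985 of 4455 bases with AC079781.5 on the same strand, a transcript at 0.295 and 0.471 FPKM. The 5 protein-coding neighbours of ASNS within 1 Mb had a median of -0.34 and ranged from -0.38 to 0.44, 4 lower and 1 higher.

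PHGDH gave the largest difference of the 35 genes. It encodes phosphoglycerate dehydrogenase, which takes a glycolytic intermediate into serine synthesis, and was at 30.0 FPKM in sgGFP and 57.1 FPKM in sgTPST2. The ratio was 1.90 (interval 1.82 to 1.99) on about 3032 and 6570 fragments, and the difference 0.91 on the log2 scale. The next steps of the same pathway were level. PSAT1, the aminotransferase of the second step, was at 68.1 and 69.1 FPKM (ratio 1.02, interval 0.980 to 1.05), and PSPH, the phosphatase of the last step, at 45.7 and 45.6 FPKM (ratio 0.998, interval 0.956 to 1.04). PHGDH was thus the lowest of the 3 in sgGFP and lay between PSPH and PSAT1 in sgTPST2: its level over PSAT1 was 0.441 and 0.826. The mitochondrial folate enzymes that use serine were also level. SHMT2, which splits serine into glycine and a folate-bound carbon, was at 83.3 and 86.5 FPKM, and MTHFD2, which oxidises that carbon unit, at 206.8 FPKM in both libraries (interval of the ratio 0.986 to 1.01). The 4 protein-coding neighbours of PHGDH within 1 Mb (chromosome 1, gene from 119648411 to 119744226) had a median of -0.043 and ranged from -0.24 to 0.29, and 0 of 4 was 1.5-fold apart. PHGDH shares no exonic base with another annotated gene.

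Upstream sequence of ASNS and PHGDH, the 2 enzymes of this group with the largest differences, is printed to show that they differ in the element: it stands in capitals in ASNS, and the letters TGATGNAAN do not occur in this stretch of PHGDH on either strand. Each runs 250 bases up to a start annotated by RefSeq, on the strand of the gene. These starts are not the outer ends of the GENCODE genes: 134 of the 250 bases of ASNS, and all 250 of PHGDH, lie within the span of the GENCODE gene. ASNS has 2 RefSeq windows, and the one with the element is shown.

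ASNS (chr7:97872409-97872658, minus strand): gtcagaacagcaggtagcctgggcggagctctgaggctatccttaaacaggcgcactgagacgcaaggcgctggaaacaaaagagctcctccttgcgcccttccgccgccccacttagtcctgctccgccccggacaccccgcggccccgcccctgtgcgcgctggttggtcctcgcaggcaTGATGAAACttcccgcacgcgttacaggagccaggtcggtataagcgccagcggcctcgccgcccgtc
PHGDH (chr1:119711684-119711933, plus strand): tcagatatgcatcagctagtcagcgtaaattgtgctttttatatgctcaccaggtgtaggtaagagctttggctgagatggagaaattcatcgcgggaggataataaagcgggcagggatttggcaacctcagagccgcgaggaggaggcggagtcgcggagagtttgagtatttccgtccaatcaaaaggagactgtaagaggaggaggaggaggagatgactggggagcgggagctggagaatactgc

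Genes with and without the element overlapped in their differences. The 12 with it had a median of -0.061 and ranged from -0.36 to 0.45, with 4 higher and 8 lower, 1 of them (ASNS) 1.2-fold higher and 1 (AARS) 1.2-fold lower. The 17 without it had a median of -0.026 and ranged from -0.49 to 0.91, with 6 higher and 11 lower. Of these 17, 2 were 1.2-fold higher, 1 of them (PHGDH) 1.5-fold, and 2 were 1.2-fold lower. In the background of similar level, 13.0% were 1.2-fold higher and 14.1% lower.

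Among the 4 carriers, SLC7A5 differed most. SLC7A5 is LAT1, the light chain that carries leucine and other large neutral amino acids in exchange for glutamine, and it was at 38.4 FPKM in sgGFP and 29.4 FPKM in sgTPST2 (ratio 0.764, interval 0.738 to 0.790). Its heavy chain SLC3A2 (CD98hc, 4F2hc) brings it to the cell surface and also serves other light chains, and was at 70.0 and 72.5 FPKM. The heavy chain over LAT1 was therefore 1.82 in sgGFP and 2.47 in sgTPST2. A partial copy of LAT1, SLC7A5P1, was at 6.10 and 5.25 FPKM, so reads may be split between them. SLC1A5 (ASCT2), which brings in glutamine, was at 57.7 and 60.7 FPKM. The arginine and lysine carrier SLC7A1 (CAT1) was at 12.3 and 11.6 FPKM (ratio 0.941, interval 0.899 to 0.984).

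Further genes of the pathway were taken from lists, with counts over members past the filter. Folds in these counts are on the scale log2((sgTPST2 + 1)/(sgGFP + 1)), which for low genes gives smaller differences than the plain ratio. The eIF2 kinases and other genes of the eIF2 cycle lay close together: of 16 genes 0 were 1.5-fold apart, 13 were on the lower side, and the median was -0.099. All 4 kinases were among the 13. Over all genes past the filter, 4.41% were 1.5-fold higher and 6.94% lower. In the background at the levels of the 35 genes, 50.3% were on the lower side. Whether this list differs from that background was not tested. EIF2AK3 (PERK), the kinase of endoplasmic reticulum stress, was at 7.20 and 6.17 FPKM, and EIF2AK1 (HRI), that of haem and mitochondrial stress, at 31.9 and 28.3 FPKM. EIF2B2, a subunit of the exchange factor for eIF2, was at 31.3 and 25.9 FPKM, and IMPACT, an inhibitor of GCN2 activation, at 25.7 and 22.5 FPKM.

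The list of 17 mitochondrial synthetases holds nuclear genes other than the 20 above, whose enzymes charge tRNAs inside the organelle. It has no gene for glycine or lysine, and whether GARS and KARS also serve mitochondria was not examined. In this list 13 of 17 were on the lower side, beside 14 of 20 for the cytosolic list. At 1.2-fold, 5 of the 17 were lower and 0 higher, and the median was -0.19. Over all genes past the filter, 17.3% were 1.2-fold lower and 16.2% higher. In the background at the levels of the 35 genes, 14.1% were 1.2-fold lower and 13.0% higher, and 50.3% were on the lower side. Whether the 2 lists differ was not tested. The tyrosine enzyme YARS2, at 84.8 and 33.95 FPKM, was the 1 member at least 1.5-fold apart. It lies on the short arm of chromosome 12, whose 108 genes of similar level had a median of -0.89. NARS2 was at 20.02 and 14.1 FPKM, LARS2 at 10.7 and 8.17 FPKM, and MARS2, on the same stretch of chromosome 2 as FARSB, at 10.8 and 8.62 FPKM.

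Of 33 other reported ATF4 targets, 25 passed the filter, 4 were 1.5-fold higher and 3 lower, with a median of 0.082. Over all genes past the filter, 4.41% were that much higher and 6.94% lower, and low genes, as some of these 7 are, scatter more. SLC7A11, the cystine carrier xCT, was at 6.79 FPKM in sgGFP and 25.3 FPKM in sgTPST2 (ratio 3.73, interval 3.58 to 3.89), and is a target of NRF2 as well as of ATF4. SLC6A9, the glycine carrier GLYT1, was at 3.27 and 7.13 FPKM (ratio 2.18, interval 1.90 to 2.50). On the lower side were VEGFA, at 33.5 and 20.8 FPKM, and the disulfide oxidase ERO1A, at 36.0 and 25.8 FPKM, which fell short of 1.5-fold. Named after their values were seen, the other genes past 1.5-fold were low in both libraries: JDP2 at 1.91 and 3.81 FPKM, the carrier SLC43A1 at 1.1996 and 2.59, the factor ATF3 at 2.47 and 1.12, and the stress cytokine GDF15 at 2.48 and 0.492.

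Other serine and folate genes numbered 12 of 15 past the filter, with 0 genes 1.5-fold higher, 2 lower and a median of -0.080 (4.41% and 6.94% over all genes past the filter). MTHFD2L, a second mitochondrial form of MTHFD2, was at 44.0 and 24.9 FPKM (ratio 0.566, interval 0.539 to 0.595), and GLDC, named after its values were seen, which cleaves glycine, at 4.17 and 0.809 FPKM (ratio 0.194, interval 0.161 to 0.233). MTHFD1, the cytosolic folate enzyme, was at 73.8 and 87.3 FPKM, GCSH, a further part of the glycine cleavage system, at 6.88 and 5.23, and MTFMT, which formylates the mitochondrial initiator tRNA, at 15.97 and 13.8. Of 19 other amino-acid carriers 11 passed, with 3 at least 1.5-fold higher (SLC7A11, SLC6A9 and SLC43A1, given above), 0 lower and a median of 0.029, beside the same 4.41% and 6.94%; SLC38A1, a glutamine carrier, was at 46.2 and 33.4 FPKM and SLC7A6 at 24.5 and 21.3 FPKM. Of 15 genes that sense amino acids upstream of mTORC1 14 passed, with 0 past 1.5-fold, beside the same 4.41% and 6.94%, and a median of -0.017. The paralogous Rag GTPases went opposite ways, RRAGC at 9.14 and 13.4 FPKM and RRAGD at 19.6 and 12.8 FPKM. The plain ratio of RRAGD was 0.654, past 1.5-fold, but with 1 FPKM added to each value its difference of -0.577 fell just short. The arginine sensor CASTOR1 was at 7.54 and 5.39 FPKM and MIOS, of the GATOR2 complex, at 19.96 and 15.9 FPKM.

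**Figure D4:**
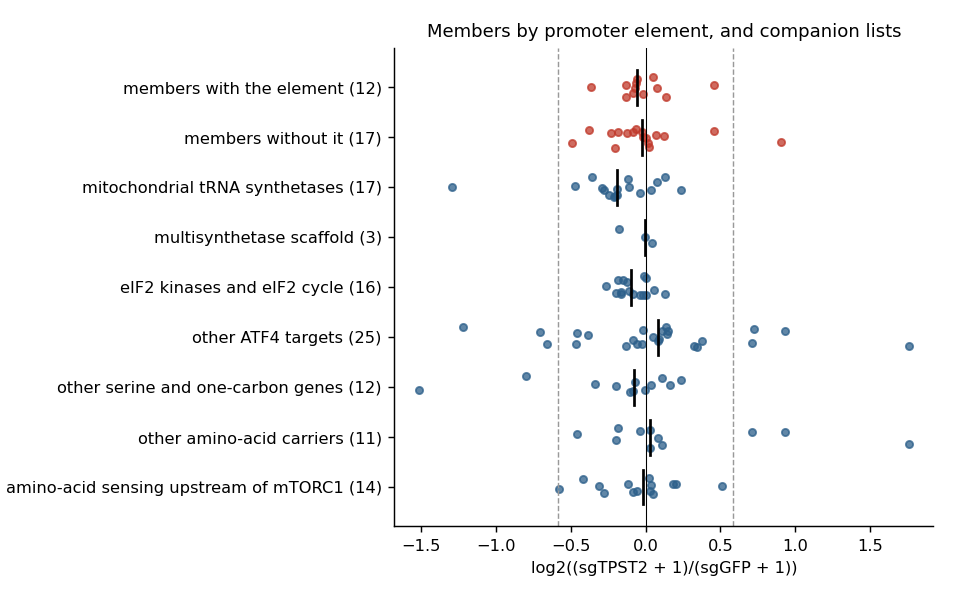
Differences as log2((sgTPST2 + 1)/(sgGFP + 1)) of the members with and without the element in a promoter window (red) and of the genes of 7 further lists that passed 1 FPKM (blue); black bars are medians, dashed lines 1.5-fold, and vertical scatter within a row carries no value. The 12 genes with the element (median -0.061) and the 17 without it (median -0.026) overlap, and SLC7A11, at 1.76, lies farthest to the right in the 2 lists that hold it.

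As a check of the labels, TPST2 itself (chromosome 22, 26521983 to 26596717, GRCh38) was at 8.46 FPKM in sgGFP and 1.92 FPKM in sgTPST2. Of the keratins of simple epithelium, KRT8 (510 and 41.6 FPKM), KRT18 (583 and 85.3) and KRT19 (189 and 12.8) were present but far lower in sgTPST2. KRT7 was below 1 FPKM in both libraries, at 0.615 and 0.112, and the ductal factor SOX9 was at 4.55 and 1.25 FPKM. EPCAM is listed at 0 in both libraries and CDH1 at 0 and 0.0524 FPKM. All 4 acinar and all 3 islet markers are listed at 0 in both libraries, as is the T cell gene CD3E, and the leukocyte gene PTPRC was at 0.102 and 0 FPKM. Of the other non-epithelial markers, COL3A1 (18.5 and 11.9 FPKM), CD68 (3.32 and 1.51) and CDH5 (2.93 and 0.277) passed 1 FPKM in sgGFP, all lower in sgTPST2; their part in the values above was not tested.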

How the data were processed

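RNA-seq of total RNA from 2 cultures was used, 1 library per condition. The submitters' processing notes name STAR, Cuffdiff and the build hg38; versions, annotation, strand and dispersion settings are not stated in any source used here. The deposited table gives 1 value per gene and library. Its header names no unit; the values were read as FPKM, as scaled by the authors, and sum to 1.010e+06 (sgGFP) and 1.001e+06 (sgTPST2), so a scaling to a common sum is possible. The authors' p-value and q-value were copied from the deposited table. The log2 fold change that the authors deposited was recomputed as log2((sgTPST2 + 1)/(sgGFP + 1)) to within 2.1e-15, and this scale (pseudocount of 1 FPKM) was used throughout. All 58698 symbols match GENCODE release 29, which gave coordinates, exons and transcript lengths.

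Fragments per FPKM were fitted on low values of genes with a single transcript longer than 1500 bp (a step of 0.0238 for the control and 0.0209 for sgTPST2, in FPKM times kb, with a length offset of 180 bp in each). Of 847 and 784 such values, 91.4% and 93.0% lay within 0.1 of a whole number; evenly spread values would give 20%, which is not the chance level, since the step was fitted on them.

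No test was made. Python 3.11.15 with scipy 1.17.1 gave the intervals, and the counting of calls was tested on simulated data. The members and lists were chosen with earlier results of these data known; named list members are up to 4 with the largest difference at 5 FPKM or more. Alternatives for pseudocount, filter, scaling, fold and members left out were tried.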

Additional observations from a re-analysis of the deposited data

How the results depend on the processing

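No paired analysis was possible because there was 1 library per condition, and no library could be left out. Over the alternatives, 59 of 64 values stayed within bounds: a count within 1.5 times, a median within 0.0445. The latter is the typical half-width of the counting interval of 1 gene on the log2 scale. These values cover both pseudocounts, both filters, the 3 scalings, and leaving out FARSB. Some of the 59 could not move. All 35 genes pass 1 FPKM and carry the authors' status OK, so dropping the filter, or genes of other status, repeats the reported values. With 0 genes lower at 1.5-fold, 0 lower at 2-fold was also fixed. The count of 59 is therefore no measure of robustness. With a fold of 1.2 in place of 1.5, 3 genes were higher and 3 lower; with 2, 0 were higher. Without the 18 genes that share exonic bases with another gene, the synthetase median was -0.13 and 8 of the 9 synthetases left were lower, against 14 of 20. The median of the ATF4 group, -0.0026 as reported, was 0.010 with columns scaled to the same sum, so its sign carries no meaning. The scalings moved the median gene by at most 0.012. Depth limits CHAC1, DDIT3, TRIB3 and ATF5 most.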
